A study of Danio rerio with 4 samples.

Results

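Genes of the calcium, sodium, potassium and HCN channel families were compared by RNA sequencing between zebrafish embryos injected with a morpholino against hace1 and embryos injected with a control morpholino. Members were taken by name: every gene of the deposited table whose symbol begins with kcn, cacn, hcn or scn followed by a digit. With a gene not analysed here left out, this gave 200 of 32512 genes. The members were chosen with earlier results of these data known. The name rule takes in more than voltage-gated pores. It also takes auxiliary subunits and the inwardly rectifying (Kir), leak (K2P) and calcium-activated (SK) potassium channels, so the genes are called ion channel genes here and each family is described apart. Of the 200 members, 96 (48.0%) were listed at 0 in every library, against 59.3% of all genes. These 96 have no transcript line in the deposited annotation, so of them it is said only that they are listed at 0. A further 14 were above 0 but below the filter on low counts, and 90 were tested.

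All embryos were wild-type Tübingen fish taken whole at 48 hours post fertilisation (hpf). One group carried the hace1 morpholino, an antisense oligonucleotide against a splice site in the region that encodes the catalytic HECT domain of this ubiquitin ligase; the other carried a standard control morpholino at the same stage. A group comprised 6 RNA samples of about 100 embryos each, combined 3 to a library, so that 2 libraries (A and B) stand for each group. The labels do not say whether the pools came from separate clutches. The p-values therefore cover variation from pool to pool, part of which may be technical. The morpholinos are the only designed sequences of the experiment and are shown 5′ to 3′ because all values below compare embryos that received one with embryos that received the other.

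hace1 morpholino: ccctcgaactgttagacagaataaa

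control morpholino: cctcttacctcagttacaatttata

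The total estimated count was 5192490 and 8596019 in controls A and B, and 9856173 and 10413981 in hace1 libraries A and B. Values listed in a row follow this order. Levels are given in CPM (counts divided by the scaled library size and brought to a common size), and levels are compared between genes only as CPM per kilobase of exonic length. Fold changes are log2 values of hace1 morphants over controls from limma-voom with their standard error (SE), and a gene is called at a Benjamini-Hochberg adjusted p below 0.05 over all 10832 tested genes. The targeted gene, hace1, stood at 18.6 and 13.5 CPM in the controls and at 13.7 and 13.5 CPM in the hace1 libraries. The groups overlapped (log2 fold change -0.19, SE 0.22, limma-voom adjusted p = 0.647). Since the morpholino acts on splicing, the total RNA of hace1 is no check of the knockdown.

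Voltage-gated channels open when the membrane depolarises. Sodium channels carry the upstroke of the action potential, potassium channels end it and set the firing rate, and calcium channels turn the electrical signal into calcium entry that triggers transmitter release, contraction and gene expression. A calcium channel of the high-voltage-activated type consists of a pore-forming α1 subunit with an intracellular β and an extracellular α2δ subunit, and HCN channels pass the depolarising pacemaker current of heart and neurons. In a whole embryo, fewer cells of a type and less RNA per cell cannot be told apart.

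In hace1 morphants 5 ion channel genes were called, and all 5 were lower: the calcium channel α1 genes cacna1c, cacna1ab and cacna1aa, the calcium channel β gene cacnb4a, and the pacemaker channel gene hcn4l. They fell by between 1.67-fold and 2.77-fold. The 5 calls are 5.56% of the 90 tested members. Over all tested genes the share called was 2.76%, with 1.38% called lower and 1.38% called higher. No member was called higher by limma-voom, and none was higher at an unadjusted p below 0.05, while 33 members were lower at that level (36.7%, against 11.6% of all tested genes lower and 10.7% higher). Leaving out either hace1 library ended these calls, as set out below, and the authors' deposited log2 values gave 0 member calls. In all these fits very few genes were called over the whole table, so the losses are not particular to the 5 genes.

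Over all tested members, the called genes included, the log2 fold changes lay mostly under 0. Of the 90, 69 (76.7%) were below 0, against 49.5% of all tested genes. Among all tested genes this share was higher at low counts, and 54 members had a mean count under 50. With a mean count under 20, 20 of 28 members were below 0 (71.4%, against 62.1% of all genes), and from 20 to 50 it was 17 of 26 (65.4%, against 59.5%). From 50 to 100 it was 14 of 15 (93.3%, against 55.2%) and from 100 on 18 of 21 (85.7%, against 43.0%). The median was -0.33 (quartiles -0.71 and -0.03, range -1.47 to 0.57), and the median of all tested genes was 0.01. Both hace1 libraries lay below both controls for 48 members (53.3%, against 26.9% of all tested genes) and above both for 12 (13.3%, against 26.7%). At least 1.5-fold lower levels were fitted for 31 members (34.4%, against 10.9%), and none was 1.5-fold higher (against 7.04%). The summed level of the tested members was 1022 and 1000 CPM in the controls and 780 and 818.2 CPM in the hace1 libraries, so the sums did not overlap. Of the 90 members, 70 reached the count minimum in all 4 libraries, and the median of these 70 was -0.37. Only 3 passed through the controls alone and 1 through the hace1 libraries alone. With no filter the median over the 104 members above 0 was -0.30.

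**Figure D1:**
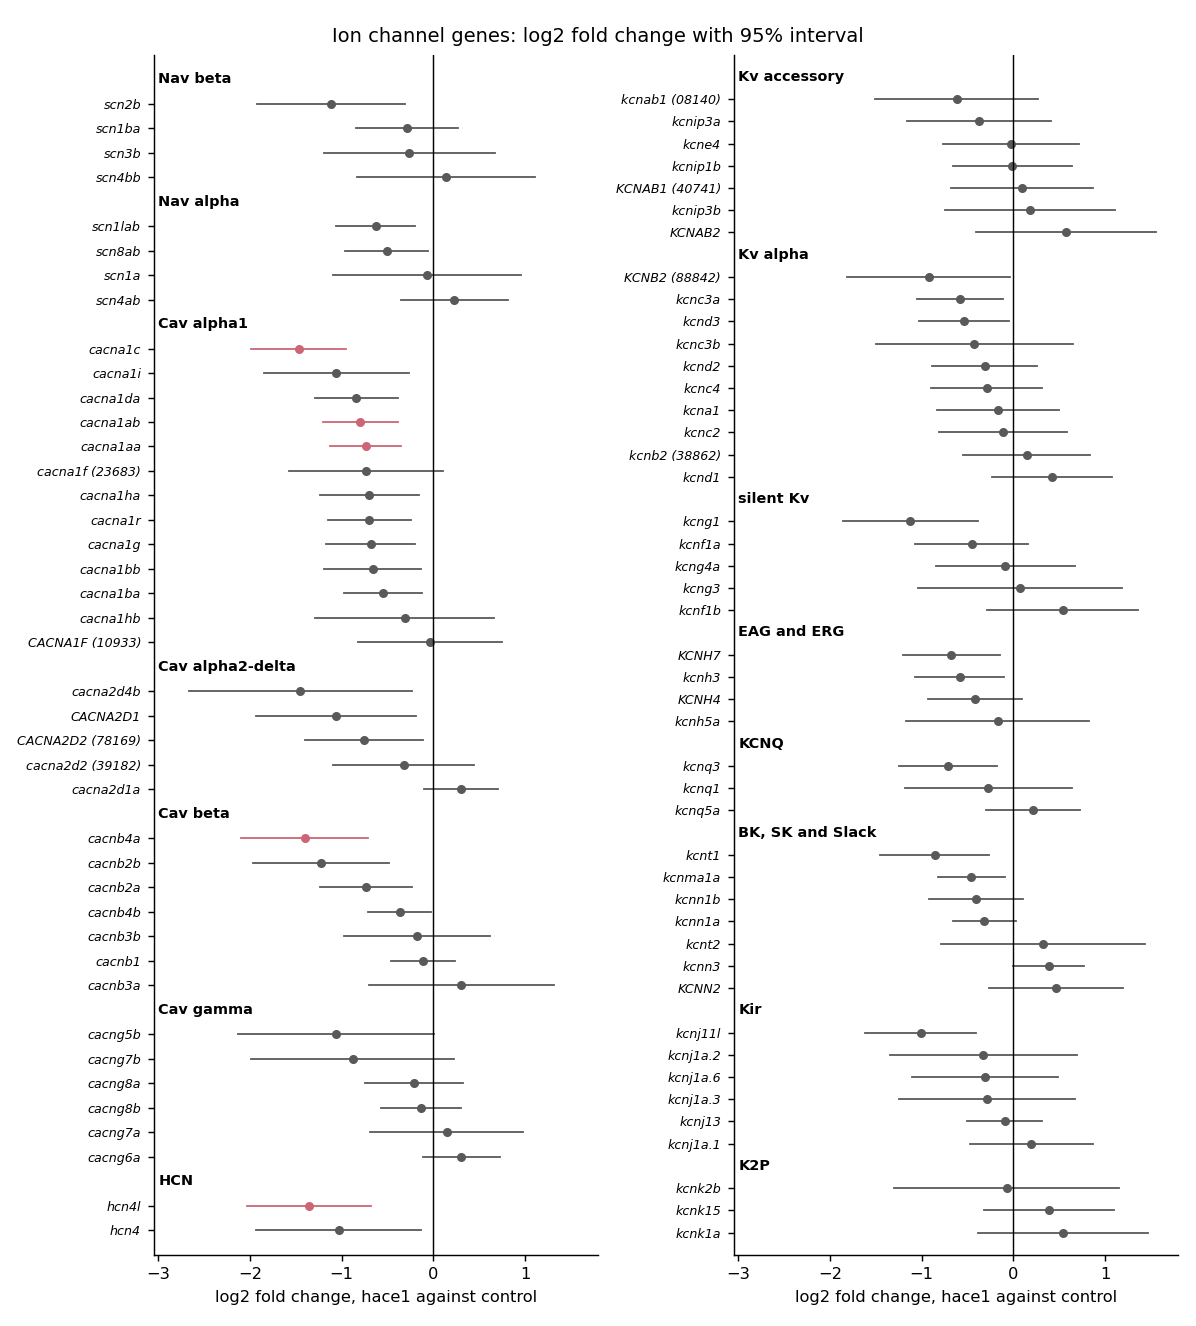
Log2 fold change of hace1 morphants against controls (horizontal axis) for 86 of the 90 tested ion channel genes, grouped by family, with the 95% interval from limma-voom as bars; red marks the 5 called genes, and 5 digits in brackets are the end of a gene identifier where a symbol occurs more than once. All 13 calcium channel α1 genes lie left of 0, and 66 of the 86 genes shown do.

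Among the pore-forming α1 subunits of calcium channels, 18 genes matched, 4 were listed at 0 and 13 were tested. All 13 had a log2 fold change below 0 (median -0.70), 3 fell, and in 11 both hace1 libraries lay below both controls. Shares over all tested genes, to set beside each family here and below, were 49.5% below 0 and 1.38% called lower. In 26.9% of them both hace1 libraries lay below both controls. All 13 belong to the longest of 5 classes of exonic length, where 63.6% of all genes were below 0 and 2.77% were called lower. The summed level of the 13 α1 genes was 182.4 and 188.3 CPM in the controls against 108.9 and 110.7 CPM in the hace1 libraries. The 4 sums thus form separate pairs, with less than 6 CPM between the libraries of either group.

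The gene cacna1c (ENSDARG00000008398; Zv9 chromosome 4, 19253817 to 19410662, 48 exons) encodes the α1 subunit of an L-type channel known for calcium entry in the heart, where its loss in zebrafish stops the ventricle from beating. It was measured at 15.3 and 13.7 CPM in the controls and at 5.22 and 5.12 CPM after hace1 morpholino. The hace1 libraries were nearly equal and far below both controls. The mean level was 14.5 ± 1.07 CPM in controls and 5.17 ± 0.0717 CPM in morphants (SD, n = 2), which is 2.77-fold lower (log2 fold change -1.47, SE 0.24, limma-voom adjusted p = 0.0135). The counts behind these levels were 88.2, 118, 48.5 and 50.6.

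A pair of genes, cacna1aa and cacna1ab, encodes the α1 subunit of P/Q-type channels, which open at presynaptic terminals and trigger transmitter release. For cacna1aa (ENSDARG00000037905; Zv9 chromosome 3, 33876944 to 33986779, 44 exons) the level was 38.5 and 47.4 CPM in the controls and 24.7 and 26.8 CPM in the hace1 libraries. For cacna1ab (ENSDARG00000006923; Zv9 chromosome 11, 31693397 to 31900366, 70 distinct exon intervals over 5 transcripts) it was 25.01 and 28.1 CPM in the controls and 14.5 and 16.2 CPM in the hace1 libraries. Both paralogues had separate groups, and both were called close to the threshold. The log2 fold change of cacna1aa was -0.74 (SE 0.18; means 43.0 ± 6.28 and 25.7 ± 1.52 CPM, SD, n = 2; limma-voom adjusted p = 0.0498). That of cacna1ab was -0.80 (SE 0.19; means 26.6 ± 2.21 and 15.4 ± 1.21 CPM, SD, n = 2; limma-voom adjusted p = 0.0482).

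Just outside the threshold was cacna1da, which encodes the L-type α1 subunit known from hair cells and pacemaker cells. It stood at 17.9 and 16.2 CPM in the controls and at 9.56 and 9.33 CPM in the hace1 libraries (log2 fold change -0.84, SE 0.21, limma-voom adjusted p = 0.0515). Its groups did not overlap, and its fitted difference was larger than that of either called P/Q-type gene. The N-type genes cacna1ba and cacna1bb, whose channels also serve transmitter release, had log2 fold changes of -0.55 and -0.66 (limma-voom adjusted p = 0.128 and 0.141). The T-type genes, whose channels open near the resting potential, ranged from -1.06 for cacna1i (3.29, 3.51, 1.39 and 1.87 CPM) through -0.70 for cacna1ha and -0.69 for cacna1g to -0.31 for cacna1hb, and none of these 4 was called. For cacna1r the value was -0.70 (limma-voom adjusted p = 0.0857).

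Of the genes named cacna1f, whose mammalian counterpart serves transmitter release from photoreceptors, the copy ENSDARG00000023683 had a log2 fold change of -0.74 (4.37, 3.42, 1.59 and 3.20 CPM). The copy listed as CACNA1F (ENSDARG00000010933) had -0.04 (2.25, 2.74, 2.84 and 2.16 CPM), with overlapping groups. Neither copy was called (limma-voom adjusted p = 0.282 and 0.966). Of 37 listed photoreceptor marker genes 22 were listed at 0, rho and crx among them, and 9 were tested. Against 1.38% called lower and 49.5% below 0 among all tested genes, 4 of these 9 markers fell (rs1a, rcvrna, sagb and opn1lw2) and 8 were below 0. Their summed level was 80.6 and 81.7 CPM in the controls and 31.9 and 26.8 CPM in the hace1 libraries, and their part in the channel values was not tested.

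**Figure D2:**
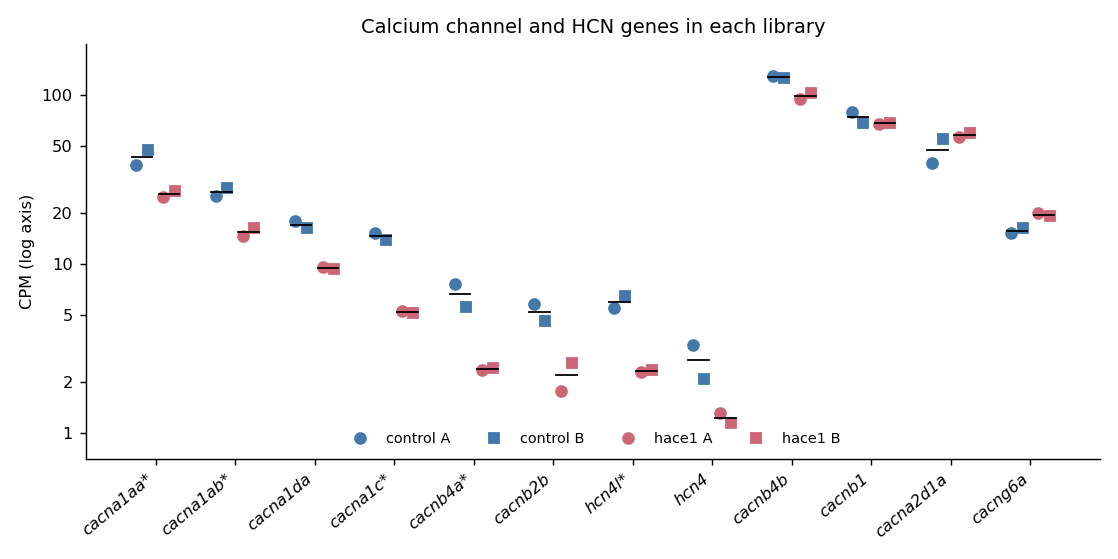
Level in CPM (log axis) of 12 calcium channel and HCN genes in each of the 4 libraries; circles are library A, squares library B, black lines the group means and asterisks the called genes. From cacna1aa to hcn4 both hace1 libraries lie below both controls, whereas those of cacna2d1a and cacng6a lie above both controls with no call.

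All 7 genes of the calcium channel β subunits, which bring the pore to the membrane and tune its gating, were tested. Of these, 1 fell and 6 were below 0 (median -0.37). Among all tested genes 1.38% were called lower and 49.5% were below 0. The called gene was cacnb4a (ENSDARG00000009738; Zv9 chromosome 9, 39126391 to 39182394, 15 exons), a counterpart of the gene mutated in the ataxic and epileptic lethargic mouse. It stood at 7.60 and 5.56 CPM in the controls and at 2.33 and 2.42 CPM in the hace1 libraries. The controls differed from each other more than the hace1 libraries did, and the groups did not overlap. The means of 6.58 ± 1.44 and 2.38 ± 0.0641 CPM (SD, n = 2) correspond to a 2.65-fold lower level (log2 fold change -1.41, SE 0.32, limma-voom adjusted p = 0.0447), on counts of 43.9, 47.8, 21.7 and 23.9.

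Its paralogue cacnb4b had the highest level per length of all tested members, 32.3 CPM per kilobase. It stood at 129 and 125 CPM in the controls and at 95.1 and 102 CPM in the hace1 libraries, with separate groups but no call (log2 fold change -0.37, SE 0.16, limma-voom adjusted p = 0.198). The paralogues of cacnb2, whose product is the main β subunit of the mammalian heart, lay at -1.22 for cacnb2b (5.75, 4.61, 1.77 and 2.60 CPM, limma-voom adjusted p = 0.0703) and at -0.74 for cacnb2a (12.2, 11.1, 6.996 and 6.87 CPM, limma-voom adjusted p = 0.0957). Both had separate groups. The gene cacnb1, the β subunit of the skeletal muscle channel and the second highest member per length (11.9 CPM per kilobase), stood at 79.1, 68.3, 67.6 and 68.2 CPM (log2 fold change -0.11, limma-voom adjusted p = 0.717). Control A was the highest, and control B lay just above the hace1 libraries.

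The α2δ genes encode extracellular subunits that raise the number of channels at the surface. Of 10 members 4 were listed at 0 and 5 were tested, none was called and 4 were below 0 (median -0.76). Their highest member per length, cacna2d1a (7.35 CPM per kilobase), lay in the other direction. Its levels were 39.5 and 54.6 CPM in the controls and 56.1 and 59.3 CPM in the hace1 libraries, so that control A stood apart and control B came near the hace1 libraries (log2 fold change 0.30, SE 0.18, limma-voom adjusted p = 0.359). Without control B, and so with control A as the only control, its log2 fold change was 0.54. The other 4 were cacna2d4b (-1.45), whose mammalian counterpart is a photoreceptor subunit, CACNA2D1 (-1.06), the CACNA2D2 gene ENSDARG00000078169 (-0.76) and the cacna2d2 gene ENSDARG00000039182 (-0.32). Counts of cacna2d4b were only 8.0, 9.98, 2.33 and 7.0 (SE 0.56, limma-voom adjusted p = 0.157), and only its controls reached the count minimum. Those of CACNA2D1 were 20.5, 21.7, 10.3 and 16.8 (SE 0.40, limma-voom adjusted p = 0.150). Photoreceptor markers were also mostly lower, as given above, and their part in these values was not tested.

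The γ genes include those of the γ subunit of the skeletal muscle channel and of proteins that escort AMPA-type glutamate receptors. Of 16 members 8 were listed at 0 and 6 were tested, none was called, and 4 were below 0 (median -0.17). The highest per length were cacng6a at 8.74 CPM per kilobase (15.1, 16.3, 19.9 and 19.1 CPM, log2 fold change 0.31, SE 0.19, limma-voom adjusted p = 0.365) and cacng8b at 5.62 CPM per kilobase (19.6, 16.4, 15.4 and 16.98 CPM, -0.13). The skeletal muscle subunit genes cacna1sa, cacna1sb and cacng1 were listed at 0, so these data give no value for the main pore of the muscle channel.

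HCN channels open on hyperpolarisation, and HCN4 carries most of the pacemaker current of the mammalian sinoatrial node. Of 7 members 3 were listed at 0 and 3 were tested, and all 3 were below 0. The family's sum was 11.4 CPM in both controls and 5.61 and 5.81 CPM in the hace1 libraries. The gene hcn4l (ENSDARG00000074419; Zv9 chromosome 25, 30195791 to 30257207, 7 exons), whose identifier is paired with the symbol HCN4 in the current symbol table, had 5.48 and 6.42 CPM in the controls and 2.27 and 2.35 CPM in the hace1 libraries. Each control exceeded each hace1 library by more than 3 CPM. It fell by 2.57-fold (means 5.95 ± 0.666 and 2.31 ± 0.0594 CPM, SD, n = 2; log2 fold change -1.36, SE 0.31, limma-voom adjusted p = 0.0452), on counts of 31.7, 55.2, 21.1 and 23.3. The log2 fold change of hcn4 was -1.03 (3.29, 2.07, 1.31 and 1.15 CPM, limma-voom adjusted p = 0.169), with separate groups and no call. Of 10 tested cardiac muscle markers none was called, 8 were above 0 and the median was 0.37. Over all tested genes 2.76% were called and 49.5% were below 0. The ventricular myosin gene vmhc was listed at 0.

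Sodium channel α subunits are the pores of the action potential. Of 11 members 7 were listed at 0 and 4 were tested, and none was called. The gene scn1lab, whose loss in zebrafish larvae causes seizures, had 27.4 and 25.02 CPM in the controls and 14.7 and 19.2 CPM in the hace1 libraries. Its groups were separate (log2 fold change -0.63, SE 0.20, limma-voom adjusted p = 0.0962). A counterpart of the main sodium channel gene of nodes of Ranvier, scn8ab, also had separate groups (18.4, 16.7, 11.01 and 13.6 CPM, -0.51, SE 0.21, limma-voom adjusted p = 0.178). For the muscle sodium channel gene scn4ab the hace1 libraries lay above the controls (5.22, 5.14, 6.45 and 5.75 CPM, 0.23, SE 0.27, limma-voom adjusted p = 0.656), and its paralogue scn4aa was listed at 0. Sodium channel β subunits, which modulate and anchor the pore, gave 4 tested genes of 7 and no call (median -0.28). In 1 of the 4, above 0, both hace1 libraries lay above both controls. The 3 below 0 were scn2b at -1.12 (3.79, 3.07, 1.35 and 1.72 CPM, limma-voom adjusted p = 0.111), scn1ba at -0.29 (8.57, 8.78, 6.09 and 8.30 CPM) and scn3b at -0.26 with overlapping groups.

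No potassium channel gene was called. Of the voltage-gated α subunits, which repolarise the membrane, 11 of 21 members were tested and 9 were below 0 (median -0.31). The highest per length were kcnc3a, a fast-spiking neuronal type (15.9, 13.97, 9.14 and 10.6 CPM, log2 fold change -0.58, limma-voom adjusted p = 0.144), and kcnd3, an A-type pore (15.8, 20.6, 10.99 and 14.5 CPM, -0.54, limma-voom adjusted p = 0.185). Both had separate groups. On the other side of 0, also with separate groups, was kcnd1, another A-type pore, at 0.42 (3.19, 3.82, 5.05 and 4.52 CPM, limma-voom adjusted p = 0.431). Silent subunits, which form channels only together with other pores, gave 5 tested genes of 12. Here kcng1 stood at 6.57 and 5.84 CPM in the controls and 3.80 and 2.09 CPM in the hace1 libraries (-1.12, SE 0.34, limma-voom adjusted p = 0.0866), and kcnf1b lay at 0.54 (limma-voom adjusted p = 0.424). Both had separate groups, in opposite directions.

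All 4 tested genes of the EAG and ERG group (of 11) were below 0, led by KCNH7, an ERG type, at -0.68 (18.4, 13.9, 8.31 and 11.6 CPM, limma-voom adjusted p = 0.134), and kcnh3, an ELK type, at -0.59 (12.1, 11.9, 8.42 and 7.60 CPM, limma-voom adjusted p = 0.152). Both had separate groups. KCNQ channels carry the M-current that restrains repetitive firing, and 5 of 8 were tested. Of these 5, 3 were below 0 and 2 above, with a median of -0.27. Groups were separate for kcnq3 (9.48, 8.996, 5.61 and 5.61 CPM, -0.71, SE 0.24, limma-voom adjusted p = 0.121). In 1 other gene of this family both hace1 libraries lay above both controls. Accessory proteins of voltage-gated potassium channels showed little shift: 7 of 14 were tested and their median was -0.01. They ranged from -0.62 for the kcnab1 gene ENSDARG00000008140 to 0.57 for KCNAB2 (ENSDARG00000062134; 0.763, 1.03, 1.36 and 1.44 CPM), both with separate groups. The A-type channel partners kcnip1b (-0.01) and kcnip3b (0.18) overlapped between groups.

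Calcium- and sodium-activated potassium channels include members on both sides of 0. Of 11 members 7 were tested, with a median of -0.32. The SK genes kcnn1a (60.5, 63.8, 48.2 and 51.8 CPM, 9.03 CPM per kilobase) and kcnn3 (23.7, 22.6, 28.4 and 32.0 CPM, 6.95 CPM per kilobase), whose channels produce afterhyperpolarisation, had separate groups in opposite directions, with log2 fold changes of -0.31 and 0.38. Neither was called (limma-voom adjusted p = 0.263 and 0.226), and the difference between them was not tested. Another SK gene, KCNN2, lay at 0.47, with both hace1 libraries above both controls. The BK gene kcnma1a, whose channel answers to both voltage and calcium, had 46.4, 43.4, 30.4 and 34.9 CPM (-0.46, SE 0.17, limma-voom adjusted p = 0.140), and the sodium-activated channel gene kcnt1 lay at -0.86 (limma-voom adjusted p = 0.0985).

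Of the inward rectifiers, which hold the resting potential, 18 of 26 members were listed at 0 and 6 were tested, and 5 of these were below 0. The gene kcnj11l, named after the pore of the ATP-sensitive channel, had 11.4, 8.01, 4.95 and 4.36 CPM with separate groups (-1.01, SE 0.28, limma-voom adjusted p = 0.0683). The gene kcnj13, which acts in zebrafish stripe patterning, overlapped between groups (41.9, 31.8, 36.3 and 31.6 CPM, -0.10, limma-voom adjusted p = 0.801). The remaining 4 tested genes are copies of kcnj1a with -0.33 to 0.20, and how the counting split reads between these copies is uncertain. Leak channels gave 3 tested genes of 21, with a median of 0.39. Both hace1 libraries lay above both controls for kcnk1a at 0.54 and kcnk15 at 0.39 (limma-voom adjusted p = 0.480 and 0.512). The gene kcnk2b lay at -0.07 with widely overlapping levels (1.38, 2.86, 1.05 and 3.69 CPM).

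**Figure D3:**
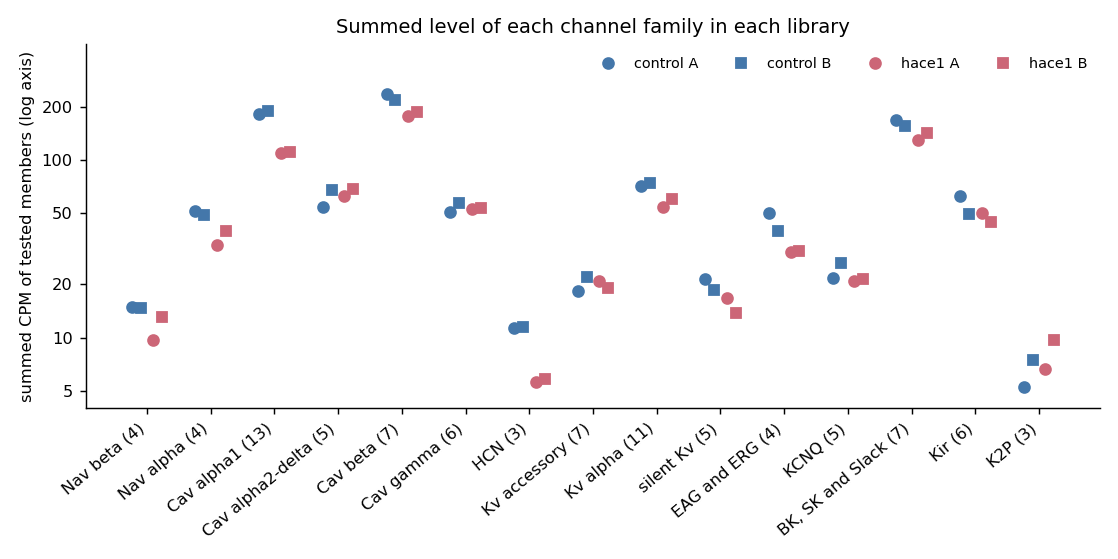
Summed CPM of the tested members of each family (number tested in brackets) in each of the 4 libraries, on a log axis; circles are library A and squares library B. The Cav α1 sums (182.4 and 188.3 CPM in controls, 108.9 and 110.7 in hace1 libraries) and the HCN sums separate by group with little spread within it, while those of the Cav γ and potassium channel accessory families overlap.

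All 5 calls needed both hace1 libraries. Without hace1 A the log2 fold changes of the 5 called genes lay between -1.49 and -0.68 and without hace1 B between -1.46 and -0.80, yet none was called (limma-voom adjusted p from 0.305 to 0.494 and from 0.437 to 0.537). In the same fits 13 (0.12%) and 8 (0.0739%) of all tested genes were called. Without control A, and without control B, more members were called, and so were more of all tested genes. Counted in either direction, the member shares were near those of all tested genes. Shares by direction are not given for these fits, so this likeness says nothing about the direction of the member calls. The called genes of the main fit were among the members called in each case. In fits with one library left out, the lone library of its group is assumed to vary like the others.

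Exonic length is a property that moved with the comparison. Among all tested genes, divided into 5 classes by length, the shortest class had a median of 0.06 and the longest one of -0.12, where 2.77% were called lower. The channel genes are long: 28 of the 90 lie in the longest class, and 3 of the 5 called genes (cacna1c, cacna1ab and cacna1aa) are among these 28. Within that class 24 of 28 channel genes were below 0, against 63.6% of all its genes, and their median was -0.49. In the shortest class 9 of 11 were below 0, against 44.3% of all its genes, with a median of -0.33. In the second class it was 9 of 17, with a median of -0.01, against 43.8% of all its genes and their median of 0.06. In classes 3 and 4 it was 11 of 16 and 16 of 18, against 45.3% and 50.5% of all their genes. A correction of each library for exonic length was fitted with limma-trend in place of limma-voom. Without the correction, limma-trend called cacna1c, cacnb4a and hcn4l, so cacna1ab and cacna1aa were already uncalled there. After the correction, cacna1c (-1.32, limma adjusted p = 0.0259) and cacnb4a (-1.40, limma adjusted p = 0.0458) were still called. Not called were hcn4l (-1.28, limma adjusted p = 0.0537), cacna1ab (-0.65, limma adjusted p = 0.0824) and cacna1aa (-0.63, limma adjusted p = 0.0793). The median of the tested members was then -0.32.

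**Figure D4:**
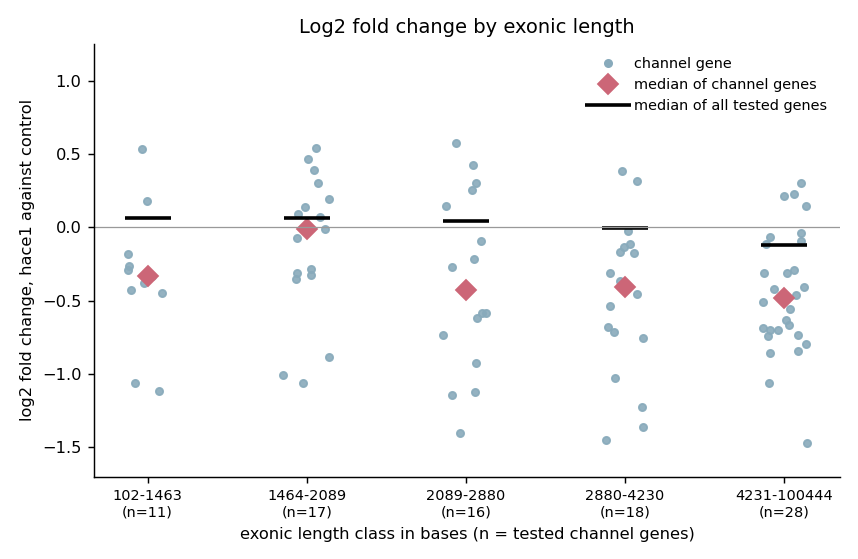
Log2 fold change of hace1 morphants against controls by class of exonic length in bases; small points are the tested channel genes (n in each class under the axis), diamonds their median and black bars the median of all tested genes in the class. The channel medians lie below those of all genes in each of the 5 classes, from -0.33 against 0.06 in the shortest to -0.49 against -0.12 in the longest, with the smallest gap in the second class.

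Exon counts describe where along a called gene the lower level lay. These genes were chosen for lower gene counts, which the exon counts make up, so mostly lower exons are no separate support. Counts per exon were small: the 48 exons of cacna1c shared 48.5 to 118 counts in a library. Exons, here and above, are distinct pairs of start and end over all annotated transcripts, so overlapping variants of an exon count apart. In cacna1c 36 of 48 exons had a lower mean in hace1 morphants, in cacna1ab 53 of 70, in cacna1aa 38 of 44, in cacnb4a 13 of 15 and in hcn4l 6 of 7. With each gene divided at the middle of the summed length of these exons, the log2 ratio of the summed exon levels was -1.07 in the 5′ part and -1.71 in the 3′ part of cacna1c. The order was opposite in cacnb4a (-1.98 and -1.03), cacna1ab (-0.93 and -0.62) and cacna1aa (-0.94 and -0.61), and the parts were near each other in hcn4l (-1.42 and -1.31). Both parts were thus lower in each of the 5 genes. Coverage along genes differed between libraries: over 8472 genes the median share of counts in the 3′ part was 60.3% in control A and 64.3, 65.1 and 64.4% in control B, hace1 A and hace1 B, and its part in the channel values was not tested. Exon use was tested in 59 members with diffSplice from limma, and 0 were called (0.0843% of 9491 tested genes were). At an unadjusted p below 0.05 there was 1, the N-type gene cacna1ba, with an adjusted p of 1.0.

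Transcript shares, estimated from the exon counts of each transcript, could be given for 16 members with 51 transcripts, of which 10 (19.6%) had separate groups, against 37.9% of 11253 transcripts of tested genes with the same minimum. The count is therefore no result about the channel genes. In cacna1ab, the called gene with the most annotated transcripts, the transcript cacna1ab-004 held 0.0296 and 0.0765% of the exon counts in the controls and 5.40 and 4.20% in the hace1 libraries. It was the only one of the gene's 5 transcripts with separate groups, on gene counts of 145, 242, 135 and 160, so few counts lie behind it. The main transcript cacna1ab-001 overlapped between groups (89.6, 80.2, 82.6 and 73.0%). These shares rest on the authors' estimated counts and carry no error, and no test was made.

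Genes that work beside the channels were counted from lists chosen by function, with earlier results of these data known. The shares over all tested genes, to set beside each list here and below, were 49.5% below 0, 1.38% called lower and 1.38% called higher. In the longest class of exonic length 63.6% of all genes were below 0, and the lists were not matched for length. Of 14 tested scaffold genes of the axon initial segment, node and synapse, all 14 were below 0 (median -0.47) and 1 fell, lgi1b, a secreted ligand linked to potassium channel complexes (25.6, 17.2, 9.44 and 10.8 CPM, -1.02, SE 0.24, limma-voom adjusted p = 0.0464). The ankyrin gene ank2b, which anchors membrane proteins, was not called (141, 204, 130 and 144 CPM, -0.31, limma-voom adjusted p = 0.377). Accessory proteins encoded outside the channel families gave 0 calls among 18 tested, with 17 below 0 and a median of -0.49. The most abundant of them barely differed: calm1a, a calmodulin gene, lay at -0.01 and fgf13a, a sodium channel partner, at -0.01.

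Other channels, exchangers and pumps gave 23 tested genes, of which 16 were below 0 (median -0.31) and 1 fell: slc8a4a, a sodium-calcium exchanger (9.13, 10.1, 4.79 and 3.43 CPM, -1.25, SE 0.27, limma-voom adjusted p = 0.0413). Genes of excitation-contraction coupling in muscle lay the other way. Of 13 tested, 10 were above 0 (median 0.28) and 2 rose: atp2a1l, a calcium pump of the sarcoplasmic reticulum (382, 564, 920 and 948 CPM, 1.02, SE 0.21, limma-voom adjusted p = 0.0388), and srl, a calcium-binding protein of the same compartment (283, 328, 497 and 544 CPM, 0.78, SE 0.18, limma-voom adjusted p = 0.0464).

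Markers of the tissues that express these channels were counted in the same fit. Over all tested genes 49.5% were below 0, 1.38% were called lower and 1.38% higher. Of 15 tested neuronal markers 10 were below 0 (median -0.16) and 1 fell, gad2, which makes the transmitter GABA. Their summed level was 1939 and 2427 CPM in the controls and 1843 and 1978 CPM in the hace1 libraries, so the sums overlapped. Skeletal muscle markers gave 22 tested genes with a median of 0.35, of which 2 rose (desma and mybpc2b), glia gave 10 with -0.17 and no call, and epidermis and ionocytes gave 7 with 0.38 and no call. The part of cell composition in the channel values was not tested.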

How the data were processed

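Whole-embryo RNA from 4 pooled libraries was sequenced on an Ion Proton, 2 libraries to a chip. The labels do not assign libraries to chips; if a chip held one group, chip and morpholino cannot be told apart. Per the submitters' processing notes, reads passed through tools that include DESeq, TopHat2 2.0.6 with Bowtie2 2.0.2, and cutadapt 1.2.1, on build Zv9. How reads were counted, whether by strand and against which annotation, is not given in the sources read. The authors deposited estimated counts per gene, exon and transcript inside an annotation file, and log2 values per gene that were used only as an alternative. Unmatched value columns numbered 0.

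Gene counts (5192490 to 10413981 per library) were scaled by TMM (over the tested genes, with 30% of the log ratios and 5% of the levels trimmed). The filter asked for a total count of 15 and, in 2 or more libraries, for the CPM that a count of 10 has at the median library size. Tests used limma-voom (limma 3.58.1, R 4.3.3; two-sided) and a model of group alone. Count-only tools were not run because the deposited counts are estimates that need not be whole numbers and are stored as named pairs. Exon use was tested with diffSplice on exons with a total of at least 10. The code was tested on simulated data. The deposited transcript values did not sum to 1 even for genes with 1 transcript (median 0.899 in control A over 5672 genes), so shares were taken from exon counts, for members with at least 30 counts in every library. No exon of a tested member overlapped one of another quantified gene. Current symbols were found for 158 of the 200 members.

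Members and lists were chosen with earlier results of these data known. Named are hace1, every called member, the 2 members of highest CPM per kilobase in each family, the 6 largest differences in each direction among members with a mean of at least 1 CPM and separate groups, and of each list outside the families the called genes and at most 2 others; members named beyond these were chosen after their values were seen. Values of 3 genes that the rule would name are not reported here; these genes stayed in the tests and family counts. The letters A and B were checked for pairing. Over 6390 genes the difference A minus B of the controls and that of the hace1 libraries correlated at -0.01. No shared difference along the letters was thus seen. This correlation cannot tell whether libraries of a letter shared a chip or a clutch. Other scalings, filters, tests, a length correction, a block and leaving out each library were tried as alternatives.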

Additional observations from a re-analysis of the deposited data

How the results depend on the processing

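The median log2 fold change of the tested members was below 0 in every setting tried. It moved beyond the spread between libraries with library totals in place of TMM (-0.44, a scaling added after seeing the data, under which the median of all tested genes was -0.10), with a mean count of at least 50 (-0.55 over 36 members), and in 3 of the 4 fits with 1 library left out (range over the 4 -0.41 to -0.32; without hace1 A it did not). The 5 members called became 6 with library totals, 4 with median-of-ratios factors and 4 with a mean count of at least 50. That minimum took cacnb4a and hcn4l out of the test, and the other 3 calls were kept. The members called numbered 3 without a filter on low counts, 3 with limma-trend and 0 with the authors' deposited log2 values. With the length correction, itself a limma-trend fit, 2 were called. Median-of-ratios factors lost cacna1aa, with 297 of 10832 genes called, and cacna1da was called with library totals and with a mean count of at least 50. For the fits without a filter, with limma-trend and with a mean count of at least 50, calls over all genes are not given. The member calls of these fits thus have no share beside them. Leaving out 1 library gave 0 to 25. Over all genes, 299 calls became 482 with library totals (113 higher, 369 lower, against 149 and 150), 154 with the length correction and 1 with the authors' log2 values, and 8 to 2565 with 1 library left out. Partner genes called (4 of 68) became 14 with library totals, 2 with the length correction, 0 with the authors' log2 values and 0 to 28 with 1 library left out. With a replicate block on the letters A and B, 914 of 10832 genes, 10 of 90 members and 15 of 68 partners were called. With the replicate block and the length correction, 1106, 13 and 16 of the same totals were called. Whether the letters pair the libraries is not known, and no shared difference along them was seen. Exon use gave 0 member calls in all settings.

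Uncalled genes changed sign in 16 cases. For kcnip1b the log2 fold change became 0.0021 with median-of-ratios factors, 0.043 with limma-trend and 0.061 with the authors' log2 values, and for kcnk2b it became 0.0029 with limma-trend and 0.11 with the replicate block. For kcnj13 it was 0.017 with the length correction, with or without the block. With 1 library left out, values ran from -0.37 to 0.45 for kcnip1b, from -0.97 to 0.80 for kcnk2b and from -0.31 to 0.089 for kcnj13. They ran from -0.34 to 0.73 for kcnip3b, from -0.59 to 0.052 for scn3b and from -0.45 to 0.017 for hace1. The cause was not tested. Counts were low for some called genes (21.1 to 55.2 per library for hcn4l), which limits the precision of their values.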
